A study of Mus musculus with 6 samples.

Results

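The tumour necrosis factor (TNF) superfamily of ligands and receptors was measured in mouse bone marrow-derived macrophages (BMDMs) that had shared a culture with ovarian cancer cells. The members were chosen by gene symbol among the protein-coding rows of the deposited table: TNF, the lymphotoxins and their receptor, Fas and its ligand, CD27, CD40, their ligands, the p75 neurotrophin receptor, and every numbered Tnfsf and Tnfrsf gene. This gave 42 of the 54532 genes listed, 17 ligands and 25 receptors. The tumour cells were ID8, a mouse ovarian surface epithelial cancer line, so that every culture held this single line. The labels call the marrow cells BMDMs, whereas the study's methods describe marrow-derived monocytes. Before co-culture the tumour cells received 40 µM cisplatin, a DNA-crosslinking platinum compound, for 3 libraries, or phosphate-buffered saline (PBS) for the other 3. Marrow cells came from C57BL/6 mice 6 to 8 weeks old and were kept in RPMI medium with 10% serum. No growth factor, co-culture time, cell ratio, sex of the mice or step that separated the ID8 cells from the marrow cells is given in the sources used here. The methods speak in general terms of biological replicates and triplicate experiments, but the labels do not tie a library to a culture or mouse, so the p-values measure the spread between these libraries, part of which may be technical.

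TNF superfamily ligands are mostly made as membrane proteins that work as trimers, on the cell surface or after cleavage, and each binds 1 or more receptors of the partner family. Receptors with a death domain, such as TNFR1, Fas and the TRAIL receptor, can start apoptosis or necroptosis, while others bind TRAF adaptors and switch on NF-κB. In macrophages, TNF is a central inflammatory product. Many of the other ligands are costimulatory signals that antigen-presenting cells give to lymphocytes, and BAFF and APRIL are survival factors for B lineage cells.

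Levels are given in FPKM, which divides fragments by the length of the gene and the depth of the library, so that levels of different genes can be compared. Of the members, 31 (10 ligands and 21 receptors) had at least 1 FPKM in at least 3 of the 6 libraries and were tested. Tnfrsf1b among the receptors and Tnf among the ligands had the highest levels in both groups, and the next receptor was Fas with PBS (72.8 ± 1.55 against 66.9 ± 0.73 FPKM for Tnfrsf1a) and Tnfrsf1a with cisplatin (65.5 ± 0.17 against 58.7 ± 1.55 FPKM for Fas). Tnfrsf1b, which encodes TNFR2, the receptor mainly of membrane-bound TNF, had 370, 366 and 379 FPKM in the PBS libraries and 328, 337 and 326 FPKM in the cisplatin libraries. It lay at percentile 99.5 of all tested genes in the PBS libraries and made up 54.0% ± 0.77 (SD, n = 3) of the summed receptor FPKM there, against 51.0% ± 0.35 with cisplatin. Tnf made up 70.4% ± 0.17 of the summed ligand FPKM in the PBS libraries and 74.1% ± 1.6 in the cisplatin libraries. Both shares had no overlap between the groups, with an exact permutation p of 0.1 (two-sided), the smallest that 3 libraries against 3 allow, so that no such test can reach 0.05 here. Over all 17 ligands the summed level was 152 ± 7.22 FPKM with PBS and 178 ± 6.65 FPKM with cisplatin, and over the 25 receptors 688 ± 6.99 and 648 ± 8.21 FPKM. These sums also gave an exact p of 0.1, which Benjamini-Hochberg adjustment over the 11 ratios, sums and shares computed left at 0.1.

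**Figure D1:**
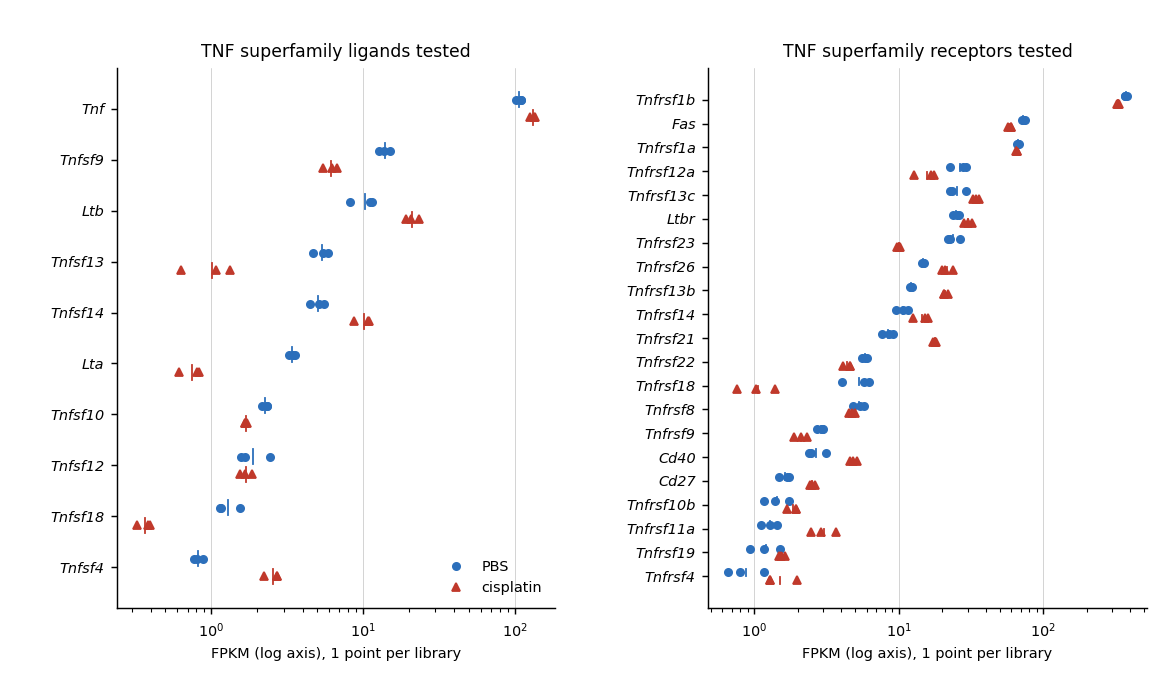
FPKM of the tested members in each library on a log axis, with PBS libraries and cisplatin libraries as separate symbols. Tnfrsf1b (326 to 379 FPKM) and Tnf (102 to 136 FPKM) are the highest receptor and ligand, and Lta, Tnfsf13, Tnfsf18 and Tnfrsf18 have all 3 cisplatin libraries well below the PBS libraries.

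Marker genes of several cell types differed between the groups. All 8 macrophage markers were tested and passed the adjusted p as higher with cisplatin, with a summed level of 4187 to 4341 FPKM against 1635 to 1647 FPKM, most of it from Lyz2 with means of 3459 and 1161 FPKM. The 13 markers of ID8 and other mesothelial-like cells summed to 242 to 262 FPKM with cisplatin and 1308 to 1411 FPKM with PBS, and all 9 of those tested were lower, while Igfbp5, Krt7, Lrrn4 and Muc16 stayed under 1 FPKM in every library. All 5 B cell markers were higher (460 to 469 against 205 to 211 FPKM), as were 6 of 7 neutrophil markers (8155 to 8421 against 4581 to 4737 FPKM, mostly S100a8 and S100a9) and all 5 mast cell and basophil markers (150 to 167 against 51.9 to 55.6 FPKM). The 9 T and NK cell markers summed to 20.4 to 21.8 against 15.0 to 16.1 FPKM (4 tested, 3 higher and Lck lower), and Cd3d, Cd3e, Cd3g, Klrb1c and Ncr1 were under 1 FPKM in every library. The 5 dendritic cell markers summed to 31.1 to 33.7 against 15.7 to 17.3 FPKM (3 tested, 2 higher and Zbtb46 lower), most of it from Ccr7 with means of 29.2 and 14.1 FPKM. The 4 fibroblast markers summed to 17.4 to 19.2 against 55.5 to 59.6 FPKM, and both that were tested were lower. No marker was at 0 in all libraries. Xist, expressed in female cells, had a mean of 7.79 FPKM with cisplatin and 42.7 FPKM with PBS, and the Y-linked gene Ddx3y had 19.2 and 8.10 FPKM. In such mixed RNA, fewer cells of a type and less RNA per cell cannot be told apart, and the part of these markers in the values below was not tested.

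**Figure D2:**
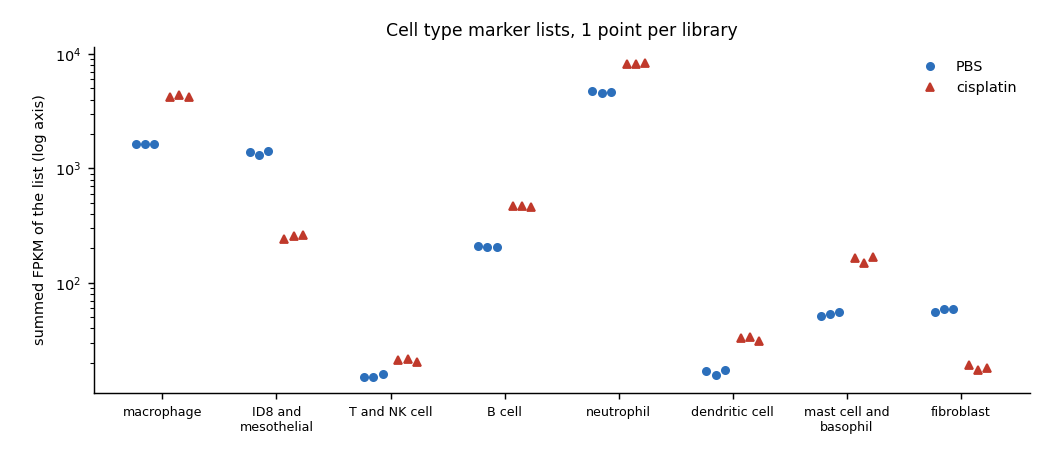
Summed FPKM of each cell type marker list in each library on a log axis, 3 PBS and 3 cisplatin libraries per list. The macrophage sum is higher in all cisplatin libraries (4187 to 4341 against 1635 to 1647 FPKM) and the ID8 and mesothelial sum is lower (242 to 262 against 1308 to 1411 FPKM).

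Differences between groups were tested with limma on log2(FPKM + 1) over all 13441 genes that passed the filter, and a gene was called where its Benjamini-Hochberg adjusted p was under 0.05 and it changed by at least 2-fold on that scale. Of the 31 tested members, 5 were called lower with cisplatin and 0 were called higher. Over all tested genes 11.3% were called lower and 4.67% higher. The 0 called higher became 5 with voom and 4 with a pseudocount of 0.1, beside 1227 and 973 of all tested genes in place of 628. Lta, 1 of the 5 called lower, passed the filter on low values only through the PBS libraries. By the adjusted p alone, 14 members were higher and 12 lower, against 32.9% and 35.1% of all tested genes. The groups did not overlap in 27 of the 31 members (87.1%), against 72.4% of all tested genes. The median log2 fold change was 0.22 over the members and 0.00 over all tested genes. It was -0.19 over the ligands, 3 of which were called lower, and 0.23 over the receptors, 2 of which were called lower. The filter was met in all 6 libraries by 24 members, and besides Lta, Tnfsf18 passed it through the PBS libraries only and Tnfsf4 through the cisplatin libraries only.

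The sign of a difference depends on the scale. When each library was further scaled by 4 genes of the Y chromosome (Uty, Kdm5d, Eif2s3y and Ddx3y), the median of all tested genes moved from 0.00 to -0.83, and 9 of the 14 members higher on the FPKM scale were below 0 (Tnf, Ltbr, Cd27, Tnfrsf4, Tnfrsf14, Tnfrsf13c, Tnfrsf26, Cd40 and Tnfrsf13b), although all 14 lay above that median. This scaling shifts all genes together, so a member below 0 under it is one whose increase was smaller than the shift. The other 5, Tnfsf4, Tnfrsf11a, Tnfrsf21, Ltb and Tnfsf14, had log2 fold changes of 0.37, 0.15, 0.07, 0.04 and 0.00 on that scale. Higher and lower below are therefore on the FPKM scale. The depth used in these FPKM was 103.7% to 104.1% of the summed reads of all listed genes in the cisplatin libraries. In the PBS libraries it was 97.4% to 98.7%. With voom on reads recovered from the FPKM, the median of all tested genes was 0.09. Small steps depend on which total is used.

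**Figure D3:**
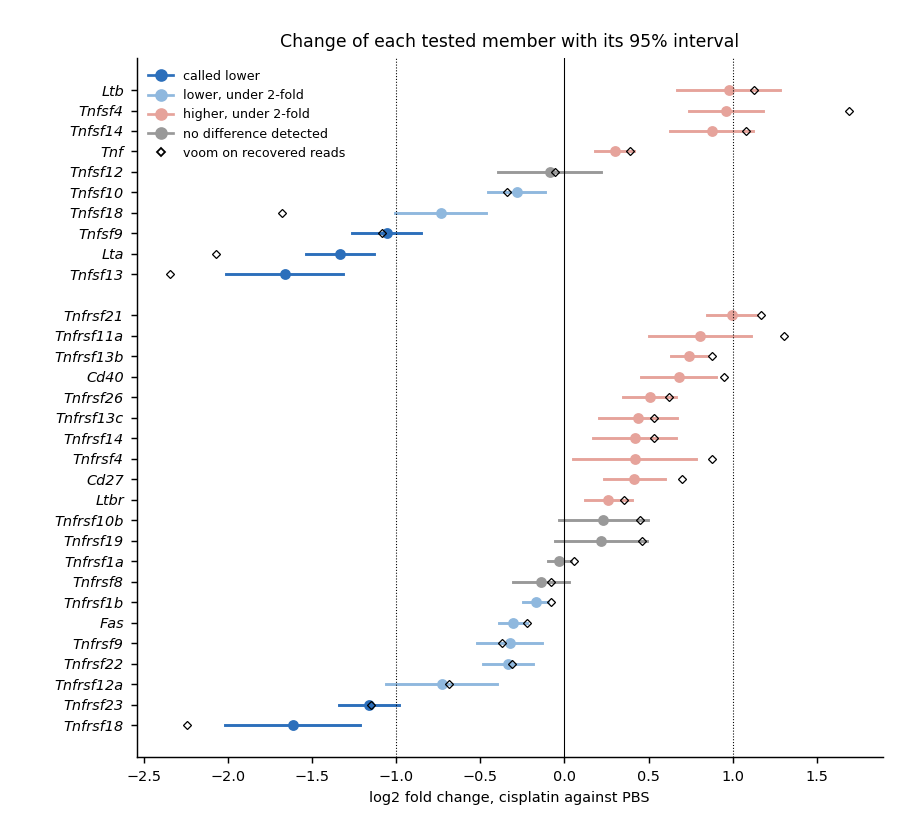
Log2 fold change of each tested member, cisplatin against PBS, on log2(FPKM + 1), with its 95% interval, ligands above and receptors below; open diamonds give the same change from limma voom on recovered reads. 5 members lie beyond a 2-fold decrease and 0 beyond a 2-fold increase, while voom places Tnfsf4, Tnfrsf11a, Tnfrsf21, Ltb and Tnfsf14 above 1 and Tnfsf18 below -1; scaling by Y-linked genes takes 9 of the 14 higher members below 0.

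Among the ligands, the largest decrease was that of Tnfsf13, which encodes APRIL, the B lineage factor that binds TACI and BCMA. It had 5.42, 4.71 and 5.87 FPKM in the PBS libraries and 1.33, 1.08 and 0.629 FPKM in the cisplatin libraries, a 5.27-fold lower mean. Every cisplatin library lay below every PBS library, and the log2 fold change was -1.67 (SE 0.15, adjusted p = 5.67e-05) from 120 to 157 reads against 17 to 37. The gene lies on chromosome 11 of mm10 next to Tnfsf12, and the antisense gene Tnfsf13os, which overlaps it, was called lower too (6.75 to 0.901 FPKM, log2 fold change -2.03). Tnfsfm13, the read-through of Tnfsf12 and Tnfsf13, had a mean of 0.808 FPKM with PBS and 0.116 FPKM with cisplatin and was not tested. The sources used here do not state whether strand was used in counting, so reads of Tnfsf13 and of its antisense and read-through partners cannot be told apart.

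Lta, which encodes lymphotoxin alpha, a secreted ligand of both TNF receptors, had 3.27, 3.44 and 3.54 FPKM with PBS and 0.808, 0.616 and 0.832 FPKM with cisplatin. The groups did not overlap, the mean was 4.54-fold lower, and the log2 fold change was -1.34 (SE 0.085, adjusted p = 1.21e-05) from 74 to 80 reads against 14 to 19. Since Lta passed the filter only through the PBS libraries, it could enter the test only with a difference. Tnfsf9, the ligand of the T cell costimulatory receptor CD137, had 13.8, 15.1 and 12.7 FPKM with PBS and 6.24, 6.70 and 5.49 FPKM with cisplatin. Its log2 fold change was -1.06 (SE 0.086, adjusted p = 4.02e-05), close to the 2-fold threshold, and was -0.99 without cisplatin replicate 3 and -0.996 without PBS replicate 2, just under the threshold in both. Gm11110, a long non-coding RNA that overlaps Tnfsf9, was called lower as well, with a mean of 3.25 FPKM with PBS and 1.10 FPKM with cisplatin.

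2 ligands fell by less than 2-fold on the tested scale. Tnfsf18, the ligand of GITR, had a mean of 1.29 ± 0.23 FPKM with PBS and 0.368 ± 0.039 FPKM with cisplatin (SD, n = 3) from 37 to 57 against 11 to 14 reads, which is 3.5-fold lower, and a log2 fold change of -0.74 (adjusted p = 0.00107) that the added pseudocount of 1 makes smaller at such levels. It passed the filter through the PBS libraries only, where it is high, and its test carries that limit. With a pseudocount of 0.1 (-1.56) and with voom (-1.68) Tnfsf18 was also called lower, which made 6 such members. Tnfsf10, which encodes the death ligand TRAIL, had 2.34, 2.16 and 2.34 FPKM with PBS and 1.73, 1.67 and 1.68 FPKM with cisplatin, without overlap (log2 fold change -0.28, SE 0.071, adjusted p = 0.00993). Tnfsf12, which encodes TWEAK, was 1.88 ± 0.47 against 1.69 ± 0.15 FPKM from 37 to 65 reads and did not pass (log2 fold change -0.09, 95% interval -0.39 to 0.22, adjusted p = 0.563). The groups overlapped, and the sign of Tnfsf12 turned (0.04) when PBS replicate 1 was left out. Tnfsf12 also overlaps Tnfsf13os and Tnfsfm13, so its reads carry the same limit as those of Tnfsf13.

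The remaining 4 tested ligands rose. Tnf itself had 110, 102 and 110 FPKM with PBS and 136, 135 and 126 FPKM with cisplatin, without overlap (log2 fold change 0.30, SE 0.049, adjusted p = 0.00137), and its log2 fold change was -0.69 when libraries were scaled by the Y-linked genes. Ltb, which encodes the lymphotoxin beta chain that anchors lymphotoxin alpha to the membrane, had 11.2, 8.26 and 11.5 FPKM with PBS and 19.3, 23.4 and 20.8 FPKM with cisplatin. The mean of Ltb was 2.05-fold higher, and its change of 0.98 on the log2 scale (SE 0.13, adjusted p = 0.000452) lay just inside the 2-fold threshold and went past it without cisplatin replicate 1 (1.04), PBS replicate 1 (1.04) or PBS replicate 3 (1.06). Tnfsf14, which encodes LIGHT, a ligand of both HVEM and the lymphotoxin beta receptor, had 5.17, 4.48 and 5.52 FPKM with PBS and 8.69, 10.8 and 10.9 FPKM with cisplatin (log2 fold change 0.88, SE 0.10, adjusted p = 0.000257). Its groups did not overlap. Tnfsf4, which encodes OX40 ligand, rose 3.10-fold in mean FPKM, from 0.820 ± 0.062 to 2.55 ± 0.27, or 0.96 on the tested log2 scale (SE 0.092, adjusted p = 9.12e-05), and passed 2-fold without cisplatin replicate 1 (1.03). It rested on 22 to 29 reads with PBS and 70 to 82 with cisplatin, and since it passed the filter through the cisplatin libraries only, it could enter the test only with a difference.

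Of the receptors, Tnfrsf18 and Tnfrsf23 were called lower. Tnfrsf18, which encodes the costimulatory receptor GITR, had 5.71, 6.28 and 4.06 FPKM with PBS and 1.39, 0.759 and 1.03 FPKM with cisplatin. The groups did not overlap and the mean was 5.04-fold lower (log2 fold change -1.62, SE 0.17, adjusted p = 0.000139) from 96 to 154 reads against 19 to 36. Gm16008, annotated antisense to Tnfrsf18, fell in the same libraries from 5.0 to 0.526 FPKM (log2 fold change -2.00), and reads of the 2 genes cannot be told apart without strand. Tnfrsf23, a decoy receptor for TRAIL found in the mouse, had 22.5, 26.7 and 22.0 FPKM with PBS and 9.76, 10.1 and 10.2 FPKM with cisplatin (log2 fold change -1.16, SE 0.074, adjusted p = 1.23e-05). The related decoy Tnfrsf22 was lower by less, at 5.84 ± 0.24 against 4.42 ± 0.27 FPKM (log2 fold change -0.34, adjusted p = 0.00236).

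4 more receptors were lower without reaching 2-fold. Tnfrsf12a, which encodes Fn14, the TWEAK receptor, had 29.2, 22.5 and 28.0 FPKM with PBS and 12.8, 17.5 and 16.7 FPKM with cisplatin, without overlap (log2 fold change -0.73, SE 0.14, adjusted p = 0.0027). Fas, the death receptor of Fas ligand, had 72.9, 74.4 and 71.3 FPKM with PBS and 59.7, 56.9 and 59.5 FPKM with cisplatin (log2 fold change -0.31, SE 0.035, adjusted p = 0.000231), and Tnfrsf1b was lower by the smallest step that passed (-0.17, SE 0.031, adjusted p = 0.00244). With voom the change of Tnfrsf1b was -0.08 (adjusted p = 0.0232). Neither Fas nor Tnfrsf1b overlapped between the groups. Tnfrsf9, the receptor CD137, was 2.89 ± 0.16 against 2.10 ± 0.22 FPKM (log2 fold change -0.33, adjusted p = 0.00968). The ID8 and mesothelial marker sum was lower in the same libraries as all 12 members that decreased, and its part in their values was not tested.

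10 receptors rose on the FPKM scale, none by 2-fold on the log2(FPKM + 1) scale. Tnfrsf21, which encodes the death domain receptor DR6, had 7.70, 9.08 and 8.52 FPKM with PBS and 18, 18.1 and 17.2 FPKM with cisplatin, a 2.11-fold higher mean without overlap. On the log2 scale its change of 0.99 (SE 0.062, adjusted p = 1.11e-05) lay at the threshold and went past it without cisplatin replicate 3 (1.02), PBS replicate 2 (1.04) or PBS replicate 3 (1.003). Tnfrsf11a, which encodes RANK, the receptor that drives osteoclast formation from macrophage precursors, had 1.28, 1.45 and 1.12 FPKM with PBS and 3.68, 2.90 and 2.47 FPKM with cisplatin (log2 fold change 0.81, SE 0.13, adjusted p = 0.00113). All 3 cisplatin libraries were above all 3 PBS libraries, and the mean was 2.35-fold higher.

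5 other receptors that rose were each below 0 under the Y-linked scaling. Tnfrsf13b, which encodes TACI, had 11.9, 12.4 and 12.2 FPKM with PBS and 20.7, 20.4 and 22.1 FPKM with cisplatin, the smallest adjusted p of all members (log2 fold change 0.74, SE 0.045, adjusted p = 9.11e-06). Tnfrsf13c, which encodes the BAFF receptor, had 29.3, 22.7 and 23.5 FPKM with PBS and 34.2, 36.0 and 32.4 FPKM with cisplatin (0.44, SE 0.097, adjusted p = 0.0061). Cd40, through which T cells activate B cells and macrophages, had 3.15, 2.38 and 2.48 FPKM with PBS and 4.63, 5.15 and 4.80 FPKM with cisplatin (0.68, SE 0.094, adjusted p = 0.000587). In none of these did the groups overlap. Tnfrsf14, which encodes HVEM, had 11.7, 9.60 and 10.6 FPKM with PBS and 12.5, 16.0 and 15.2 FPKM with cisplatin (0.42, SE 0.10, adjusted p = 0.00968), and Cd27 was 1.64 ± 0.14 against 2.52 ± 0.099 FPKM (0.41, adjusted p = 0.00245). The 5 B cell markers rose in the same libraries, Ms4a1 among them from a mean of 15.7 to 49.0 FPKM, and their part in these increases and in that of Ltb was not tested.

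Ltbr, the lymphotoxin beta receptor, had 26.1, 23.6 and 25.3 FPKM with PBS and 28.3, 30.2 and 32.0 FPKM with cisplatin (log2 fold change 0.26, SE 0.058, adjusted p = 0.00609), and Tnfrsf26, a mouse receptor next to the TRAIL decoys, had 14.8, 14.5 and 15.0 FPKM with PBS and 23.7, 20.8 and 19.9 FPKM with cisplatin (0.51, SE 0.065, adjusted p = 0.000417). Neither overlapped between groups, and both were below 0 under the Y-linked scaling. Tnfrsf4, which encodes OX40, was 0.880 ± 0.27 against 1.51 ± 0.39 FPKM, and its adjusted p of 0.0467 (log2 fold change 0.42, 95% interval 0.05 to 0.78) rested on 16 to 25 against 29 to 44 reads. That p stayed under 0.05 without PBS replicate 2 (0.0257) but was between 0.058 and 0.144 when any of the other 5 libraries was left out, and to 0.133 without the filter on low values.

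4 receptors did not pass the test. Tnfrsf1a, which encodes TNFR1, the death domain receptor for soluble TNF, had 66.2, 66.9 and 67.7 FPKM with PBS and 65.6, 65.5 and 65.3 FPKM with cisplatin. The values did not overlap, but the step was small (log2 fold change -0.03, 95% interval -0.10 to 0.04, adjusted p = 0.36), and its sign turned under voom (0.06). The ratio of Tnfrsf1b to Tnfrsf1a was 5.55 ± 0.066 with PBS and 5.04 ± 0.089 with cisplatin (exact permutation p = 0.1, two-sided). The TRAIL receptor gene Tnfrsf10b (0.23, 95% interval -0.03 to 0.49, adjusted p = 0.105), Tnfrsf19 (0.22, -0.05 to 0.49, adjusted p = 0.131) and Tnfrsf8, which encodes CD30 (-0.14, -0.31 to 0.03, adjusted p = 0.119), overlapped between groups. Under voom, Tnfrsf10b (0.45, adjusted p = 0.0152) and Tnfrsf19 (0.46, adjusted p = 0.0274) passed. Both also passed without PBS replicate 1 (adjusted p = 0.0363 and 0.0391), and Tnfrsf8 passed without PBS replicate 3 (adjusted p = 0.0471).

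Ligands and their receptors did not move as pairs throughout. The genes of GITR ligand and GITR were both lower (-0.74 and -1.62), as were those of CD137 ligand and CD137 (-1.06 and -0.33). Those of OX40 ligand and OX40 were both higher (0.96 and 0.42), although OX40 lost its adjusted p without any of 5 of the 6 libraries. Also higher were Tnfsf14 with its receptors Tnfrsf14 and Ltbr (0.88, 0.42 and 0.26), while Tnfrsf4, Tnfrsf14 and Ltbr were below 0 under the Y-linked scaling. Tnfsf13 was lower while its receptor gene Tnfrsf13b was higher (-1.67 and 0.74, the latter -0.20 under that scaling). Tnf was higher (-0.69 under that scaling), Tnfrsf1b was lower, and for Tnfrsf1a no difference was detected. Tnfsf18 and Tnfsf4 passed the filter through the group in which they were higher only, so the direction of these ligands was fixed on entry to the test.

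Several members that differed in direction are neighbours on a chromosome. Members less than 100000 bases apart formed 9 clusters. No members passed the test in opposite directions in the clusters of Cd27, Ltbr and Tnfrsf1a (0.41, 0.26 and -0.03), Tnfrsf1b and Tnfrsf8 (-0.17 and -0.14), or Tnfsf13 and Tnfsf12 (-1.67 and -0.09). Tnfsf15 and Tnfsf8 were not tested. The clusters described below are those with members in both directions. On chromosome 17 of mm10, Ltb, Tnf and Lta lie within 10.9 kb (35194439 to 35205351), and Ltb and Tnf were higher while Lta was lower. The Ltb to Lta ratio was 3.03 ± 0.55 with PBS and 28.9 ± 7.86 with cisplatin, and the Tnf to Lta ratio 31.5 ± 2.07 and 179 ± 35.0, neither affected by how the libraries were scaled. Farther along the same chromosome (57105325 to 57194177), Tnfsf14 was higher and Tnfsf9 lower, with a ratio of 0.369 ± 0.069 and 1.66 ± 0.30. Tnfsf4 and Tnfsf18 on chromosome 1 (161395409 to 161505290) had a ratio of 0.645 ± 0.066 with PBS and 7.01 ± 1.38 with cisplatin, and each of these members passed the filter only through the group in which it was higher. Their receptor genes Tnfrsf4 and Tnfrsf18, neighbours on chromosome 4 (156013843 to 156028895), had 0.167 ± 0.044 and 1.59 ± 0.88. Among the 3 related receptors on chromosome 7 (143607659 to 143685872), Tnfrsf26 was higher and Tnfrsf22 and Tnfrsf23 were lower, and the ratio of Tnfrsf26 to Tnfrsf23 was 0.628 ± 0.074 with PBS and 2.14 ± 0.25 with cisplatin. The antisense gene E230032D23Rik overlaps all 3 receptors, and their reads cannot be told apart without strand. It was higher, with means of 1.26 FPKM with PBS and 1.90 FPKM with cisplatin (log2 fold change 0.35, adjusted p = 0.00717). Each of these ratios sets a member seen to be higher against 1 seen to be lower, and Lta too passed the filter through the PBS libraries only, so all of them describe the levels given above and add no test.

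**Figure D4:**
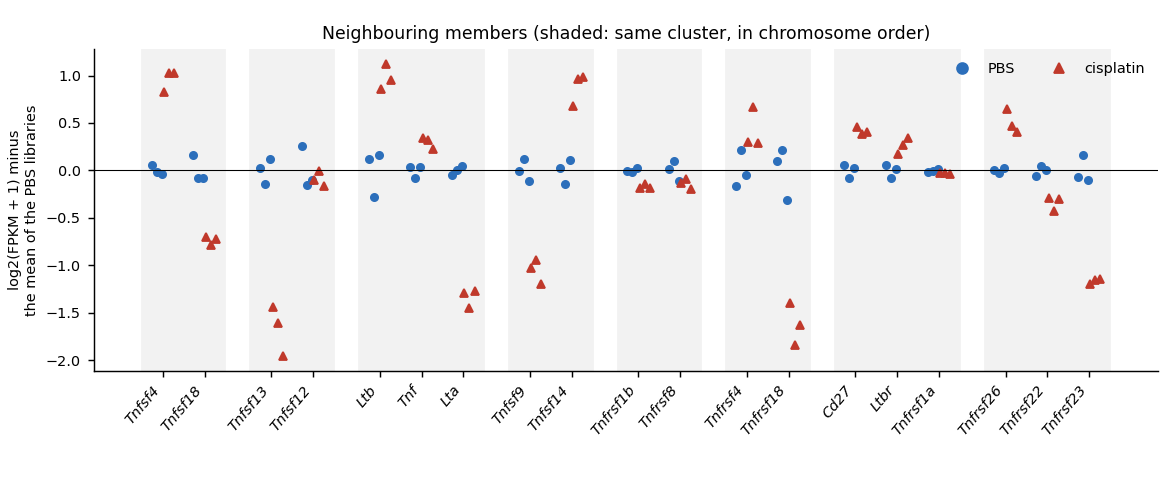
Log2(FPKM + 1) of each library minus the mean of the PBS libraries for tested members that lie close together, shaded by cluster and in chromosome order, with PBS and cisplatin libraries as separate symbols. Ltb and Tnf lie above 0 and Lta below it in all 3 cisplatin libraries, and the same split is seen for Tnfsf4 with Tnfsf18, Tnfsf14 with Tnfsf9, Tnfrsf4 with Tnfrsf18, and Tnfrsf26 with Tnfrsf23 on the FPKM scale.

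Promoters of the Ltb, Tnf and Lta genes are shown because these neighbours moved apart. They are the 250 bases before each start in RefSeq on GRCm38.p6, 5′ to 3′ along the gene, with capitals for matches to short forms of 3 motifs on either strand, NF-κB (GGNNNTTCC), STAT (TTCNNNGAA) and interferon regulatory factor (GAAANNGAA).
Ltb, chr17:35194257-35194506, plus strand: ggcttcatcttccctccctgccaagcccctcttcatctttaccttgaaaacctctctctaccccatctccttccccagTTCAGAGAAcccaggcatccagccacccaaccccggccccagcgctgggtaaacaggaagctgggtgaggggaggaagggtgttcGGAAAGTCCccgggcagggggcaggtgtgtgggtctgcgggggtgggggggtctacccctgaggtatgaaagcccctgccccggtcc
Tnf, chr17:35202008-35202257, minus strand: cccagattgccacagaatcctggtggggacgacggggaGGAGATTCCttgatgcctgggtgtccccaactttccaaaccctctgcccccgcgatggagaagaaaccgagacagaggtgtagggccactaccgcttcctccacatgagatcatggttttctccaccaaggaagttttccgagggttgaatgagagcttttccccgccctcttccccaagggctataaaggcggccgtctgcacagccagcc
Lta, chr17:35205352-35205601, minus strand: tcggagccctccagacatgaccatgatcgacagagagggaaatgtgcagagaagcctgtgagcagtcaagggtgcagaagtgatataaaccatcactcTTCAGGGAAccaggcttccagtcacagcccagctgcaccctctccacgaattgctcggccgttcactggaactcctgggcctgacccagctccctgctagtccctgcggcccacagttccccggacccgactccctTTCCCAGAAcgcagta

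In these windows Ltb held 1 STAT and 1 NF-κB match, Tnf 1 NF-κB match and Lta 2 STAT matches, with none shared by all 3 genes. In windows that also take in the 50 bases after the start, the NF-κB letters were found in 18.5% of all 32851 RefSeq promoters and in 6 of the 36 promoters of the 32 members that had one, the STAT letters in 8.30% and 9 of 36, and the interferon regulatory factor letters in 8.56% and 6 of 36. A match describes the letters only.

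The 11 members that were not tested had less than 1 FPKM in at least 4 libraries, most with few reads. Fas ligand (Fasl) had 3, 0 and 1 reads with PBS and 2, 0 and 0 with cisplatin, RANK ligand (Tnfsf11) 0, 2 and 4 and 3, 0 and 0, CD40 ligand (Cd40lg) 2, 0 and 1 and 2, 3 and 0, and the CD27 ligand Cd70 0, 0 and 1 and 1, 1 and 0. Activated lymphocytes are known sources of these ligands, and stromal and bone cells of RANK ligand. Tnfsf13b, which encodes BAFF, had 19, 15 and 13 reads with PBS and 20, 8 and 12 with cisplatin, although its receptor Tnfrsf13c had 723 reads or more in every library. Osteoprotegerin (Tnfrsf11b), the decoy of RANK ligand, had 0 reads in all PBS libraries and 1, 0 and 2 with cisplatin, and BCMA (Tnfrsf17), a plasma cell receptor, had 1, 1 and 2 reads and 0 in all cisplatin libraries. No difference can be read from such counts. Tnfsf15 (TL1A) had 4 to 15 reads, Tnfsf8 (CD30 ligand) 14 to 32 reads and the neurotrophin receptor Ngfr 0 to 18 reads, with the highest value in cisplatin replicate 3. Tnfrsf25, which encodes DR3, the TL1A receptor, came closest to the filter, with 39, 36 and 49 reads with PBS and 22, 27 and 12 with cisplatin. Fitted without the filter, 10 of the 11 had an adjusted p over 0.05, Tnfrsf25 among them (log2 fold change -0.47, adjusted p = 0.0687), and the exception was Tnfrsf17 with its 4 reads in all (adjusted p = 0.0365). Receptors such as CD40, RANK, Fas and CD27 were thus measured where the RNA of their ligands was barely detected.

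Genes that carry the signal from these receptors were examined as 5 lists. All 57 listed signalling genes were tested. Of these, 1 was called higher and 3 lower, and 15 were higher and 31 lower by the adjusted p alone, and the median log2 fold change was -0.17. Over all tested genes 4.67% were called higher and 11.3% lower, and 32.9% were higher and 35.1% lower by the adjusted p alone, and the counts of each list below, which are by the adjusted p alone, are to be read against the latter shares. Scaling by the Y-linked genes, which lowers all genes together, left 0 signalling genes called higher and 34 lower, beside 85 and 5181 of all 13441 tested genes.

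Among 17 adaptors and ubiquitin ligases of the receptor complexes, 4 were higher and 9 lower (median -0.16). Traf3ip3, which encodes a protein that binds TRAF3, was called higher, with 3.51, 3.76 and 3.97 FPKM with PBS and 8.28, 8.02 and 9.73 FPKM with cisplatin (log2 fold change 1.02, SE 0.081, adjusted p = 3.43e-05), and it lost the call without cisplatin replicate 3 or PBS replicate 1. Of 7 deubiquitinases and partners that limit NF-κB signalling, 6 were lower and 1 higher (median -0.29). Tnip3, a partner of the ubiquitin-editing enzyme A20, was called lower, with 13.0, 13.1 and 12.7 FPKM with PBS and 4.53, 4.24 and 4.30 FPKM with cisplatin (-1.38, SE 0.046, adjusted p = 6.04e-07).

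The 19 NF-κB subunits, inhibitors and kinases were split, 6 higher and 9 lower (median -0.15). Tab1, which encodes an activator of the kinase TAK1, was called lower, from 13.8, 11.4 and 14.0 FPKM with PBS to 5.65, 5.55 and 5.03 FPKM with cisplatin (-1.13, SE 0.085, adjusted p = 2.75e-05). Of 9 cell death effectors 4 were higher and 4 lower (median 0.00), and none was called. Of 5 genes for ectodomain shedding, 3 were lower and 0 higher (median -0.76). Rhbdf1, an inactive rhomboid that carries the TNF-cleaving protease ADAM17 through the cell, was called lower, with 7.11, 6.20 and 6.87 FPKM with PBS and 1.33, 1.48 and 1.6 FPKM with cisplatin (-1.64, SE 0.076, adjusted p = 2.59e-06). No difference was detected for Adam17 itself, with means of 49.5 FPKM with PBS and 46.9 FPKM with cisplatin (adjusted p = 0.0862). The same held for Rhbdf2, with 30.9 and 32.3 FPKM (adjusted p = 0.173). A further 6 family members or relatives whose symbols the rule does not take (Eda, Edar, Eda2r, Relt, Rell1 and Rell2) gave 3 tested genes, all 3 higher by the adjusted p and 0 called.

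**Figure D5:**
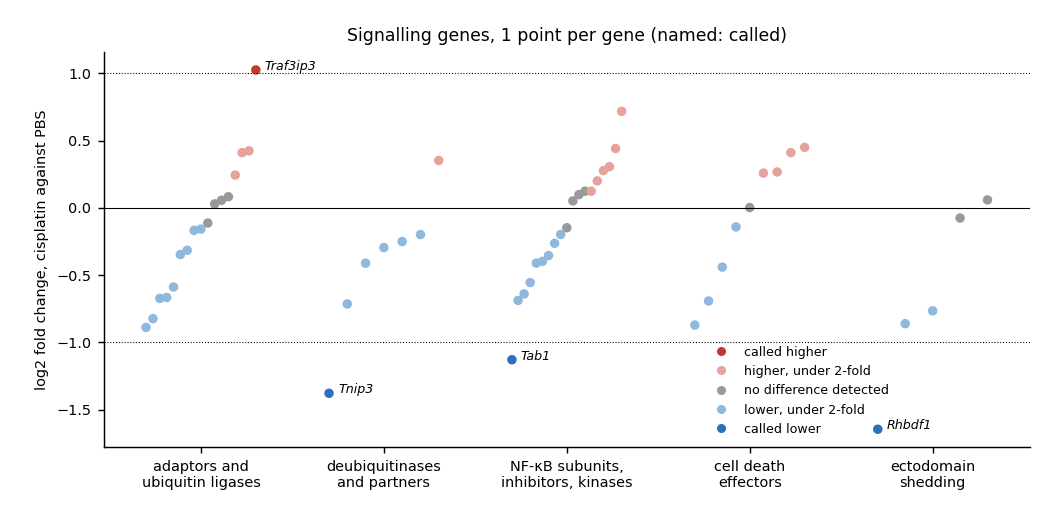
Log2 fold change, cisplatin against PBS on log2(FPKM + 1), of the 57 signalling genes in 5 groups, 1 point per gene, with dotted lines at 2-fold. Named are the gene called higher (Traf3ip3, 1.02) and the 3 called lower (Tnip3, -1.38, Tab1, -1.13, and Rhbdf1, -1.64).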

How the data were processed

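Poly-T selected RNA from 6 libraries (40 µM cisplatin or PBS pretreatment of ID8 cells, 3 each) was sequenced. The authors deposited FPKM per gene, which were used as the table gives them. The processing notes name fastp, HISAT2 2.0.5, featureCounts 1.5.0-p3 and mm10, whereas the methods name LifeScope. Which of these made the table, and whether strand was used, is not given in the sources used here. Of the members, 41 of 42 had the same coordinates in GENCODE M21.

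FPKM times gene length gave whole reads for 100% of the values under 200 reads (within 0.01 read). These reads summed to between 15776238 and 17924686 per library. Counting error is thus small except for members with few reads.

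Groups were taken from the labels. Genes with at least 1 FPKM in at least 3 of 6 libraries (13441) were fitted as log2(FPKM + 1) in limma 3.58.1 under R 4.3.3 (lmFit, eBayes with trend, group as the only term), with Benjamini-Hochberg adjustment over all of them. Fold changes on this scale understate the change of low genes. Ratios and sums were compared by exact permutation tests (scipy 1.17.1). The procedure was also run on simulated reads. These held no difference between groups in cell mixture or in the depth used for FPKM, so that run does not test the calls against either.

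Per-library values are given for called members, members with a mean of at least 10 FPKM in either group and 11 members named whatever their values. Of the signalling lists the called genes are named, and Adam17 and Rhbdf2 were added after their values were seen. Reads per library of Cd40lg, Cd70, Tnfsf11, Tnfrsf17 and Tnfrsf25 were added after their values were seen. The members and lists were chosen with earlier results of these data known. Alternatives were voom on the recovered reads, scaling by median of ratios or by 4 Y-linked genes, a filter at 5 FPKM or none, a pseudocount of 0.1, the replicate block, the adjusted p alone and leaving out each library.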

Additional observations from a re-analysis of the deposited data

How the results depend on the processing

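The 5 members called lower and the 0 called higher became 12 and 14 by the adjusted p alone, and 4 members were called higher with a pseudocount of 0.1, 1 with median-of-ratios scaling and 5 with voom. Called lower were 6 with voom and with a pseudocount of 0.1, Tnfsf18 being the addition, 2 with a filter at 5 FPKM, which tests fewer genes, and 12 with scaling by Y-linked genes. Leaving out 1 library gave 0 to 2 called higher and 4 to 5 called lower, as named in the report for Ltb, Tnfrsf21, Tnfsf4 and Tnfsf9. The 1 signalling gene called higher became 15 and the 3 called lower became 31 by the adjusted p alone, and 0 and 34 with the Y-linked scaling, while leaving out 1 library gave 0 to 1 higher. That scaling turned the sign of Cd27 (-0.26), Cd40 (-0.10), Ltbr (-0.70), Tnf (-0.69), Tnfrsf10b (-0.38), Tnfrsf13b (-0.20), Tnfrsf13c (-0.53), Tnfrsf14 (-0.51), Tnfrsf19 (-0.35), Tnfrsf26 (-0.44) and Tnfrsf4 (-0.11), and voom that of Tnfrsf1a (0.055). Tnfsf12 ranged from -0.17 to 0.041 when 1 library was left out. The shift of all genes under the Y-linked scaling fixes the turns seen with it. Voom also placed genes slightly higher as a whole, with a median over those tested of 0.085, against -0.001 in the main fit. Tnfrsf1a had 0.055 with voom and -0.032 in the main fit, a step of similar size. Whether this shift alone turned Tnfrsf1a was not tested, and neither was the cause for Tnfsf12. Over all genes, voom called 1227 higher and 1861 lower, a pseudocount of 0.1 called 973 and 1981, and the Y-linked scaling 85 and 5181, against 628 and 1514. No shared deviation of same-numbered libraries was detected (r of -0.10, -0.09 and -0.02). This cannot show whether the libraries were paired by mouse or culture, which the labels do not give. The fit with the replicate block gave 0 members called higher and 5 lower, and 1 and 3 signalling genes. Of 186 single-member values with 1 library left out, 176 kept direction and call. By the adjusted p, Tnfrsf4 was lost without the filter (0.133) and without each of 5 libraries, and Tnfrsf10b and Tnfrsf19 were gained under voom and without PBS replicate 1. Depth limits the untested members with under 5 reads per library, of which no difference was read.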
